A study of Mus musculus with 24 samples.

Results

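Small nucleolar RNAs (snoRNAs) were examined in the mediobasal hypothalamus of mice, as every gene whose array symbol starts with Snora or Snord followed by a digit. Only probe sets with 1 gene symbol were used, and a gene with several such probe sets was read from the one of highest mean. This gave 51 snoRNA genes among 19938 genes: 31 of the C/D box class (Snord) and 20 of the H/ACA box class (Snora). Of these, 26 lay above the low-level threshold of 5.86 log2 units that left 11871 genes for testing, 14 C/D and 12 H/ACA. The names of all 51 matched a mouse RefSeq gene by Entrez number.

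snoRNAs are short RNAs of the nucleolus that mostly guide chemical modification of ribosomal RNA. C/D box snoRNAs guide ribose methylation by fibrillarin, and H/ACA box snoRNAs guide pseudouridylation by dyskerin, while a few of either class act in the cleavage of the ribosomal RNA precursor instead. In mammals most are cut out of introns of other genes, often genes for ribosomal proteins or long noncoding RNAs, so that 1 transcription unit can give a messenger RNA and a snoRNA. Brain also holds clustered C/D snoRNAs of imprinted loci that do not follow the ribosomal pattern.

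Tissue came from mice whose strain is labelled C57BL76J, in 2 conditions at zeitgeber times (ZT, hours after lights on) 1, 7, 13 and 19. For timed sleep restriction (TSR), gentle handling prevented sleep between ZT0 and ZT6 on 5 days in a row, 2 days of free sleep followed, and 5 more days of handling completed the schedule. Controls (CON) were left undisturbed. The mediobasal hypothalamus holds the arcuate nucleus and neighbouring centres of feeding and metabolism, and the study asked how restricted sleep changes its transcripts over the day. Each of the 8 groups had 3 arrays, 3 mice per time point per condition by the design text, and no source used here gives the age or sex of the mice. The p-values rest on the spread between these arrays, which may be partly technical. All values are log2 signals, differences are TSR minus CON, and "passed" means a limma p under 0.05 after Benjamini-Hochberg adjustment over the 11871 genes.

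Of the 24 arrays, 4 had a narrow distribution of signals, with an interquartile range of 2.12 to 2.25 log2 units against 2.96 to 3.29 in the others. They were TSR ZT1 replicate 3, TSR ZT13 replicate 2 and CON ZT19 replicates 2 and 3, so CON at ZT19 rests on 1 array without them, while ZT7 holds none. With all 24 arrays the median residual SD of a tested gene was 0.36, and the median gene differed by -0.22 at ZT1, -0.18 at ZT13 and 0.60 at ZT19. Without the 4 arrays the SD was 0.11, and those medians were 0.04, -0.00 and 0.08. Results are therefore given from both fits, named by their 24 or 20 arrays. Of 12 markers of the mediobasal hypothalamus, 11 were on the array and 7 were above the threshold (Npy, Cartpt, Kiss1, Tac2, Ghrh, Fezf1 and Tbx3), while Pomc and Nr5a1 were below it. In 20 arrays all 7 were lower in TSR on average (median -0.26), and 3 of 3 tested markers of forebrain cholinergic neurons were higher (0.90 to 1.80), as were 4 of 4 of choroid plexus and plasma (median 1.47), 3 of 5 of oligodendrocytes (median 0.13) and 3 of 5 of thalamus and cortex, where 1 was lower (median 0.42). In this comparison 56.2% of all genes passed, 33.4% higher and 22.8% lower. The mean level of the 11 hypothalamic markers ranged from 6.25 to 6.57 over CON arrays and from 6.01 to 6.33 over TSR arrays. The part of these shifts in the snoRNA differences below was not tested, and in tissue RNA fewer cells of a type and less RNA per cell cannot be told apart.

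The C/D genes were 45 to 148 nucleotides long (median 68) and the H/ACA genes 61 to 205 (median 125) in RefSeq. By position, 23 C/D and 15 H/ACA genes lay within a protein-coding gene, 13 and 8 of them within a gene for a ribosomal protein. A further 6 C/D and 5 H/ACA genes lay within a long noncoding RNA gene. No enclosing gene was found for Snord104 and Snord118. Mean levels ran from 2.67 to 8.66 in the C/D class and from 3.62 to 7.41 in the H/ACA class. These levels belong to different probe sets and give no order of abundance.

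Averaged over the 4 times, C/D snoRNAs moved in both directions under sleep restriction. In 20 arrays 8 of the 14 C/D genes above the threshold were lower and 4 were higher, against 3 and 3 of the 12 H/ACA genes. Over all genes 56.2% passed in this comparison, 22.8% lower and 33.4% higher. The median difference was -0.18 for C/D genes, 0.02 for H/ACA genes and 0.03 for all genes. This leaning depended on the threshold: over all 31 C/D genes, in the fit without the filter, 10 were higher and 9 lower, with a median of 0.094 against -0.020 for all genes. Without the filter 21.1% of all genes were higher and 15% lower. With all 24 arrays the same comparison passed only Snord15b and Snord55, both C/D and both lower, where 2.41% of all genes passed and 1.68% passed as lower. The corresponding medians were -0.16 for C/D, -0.04 for H/ACA and 0.02 for all genes.

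**Figure D1:**
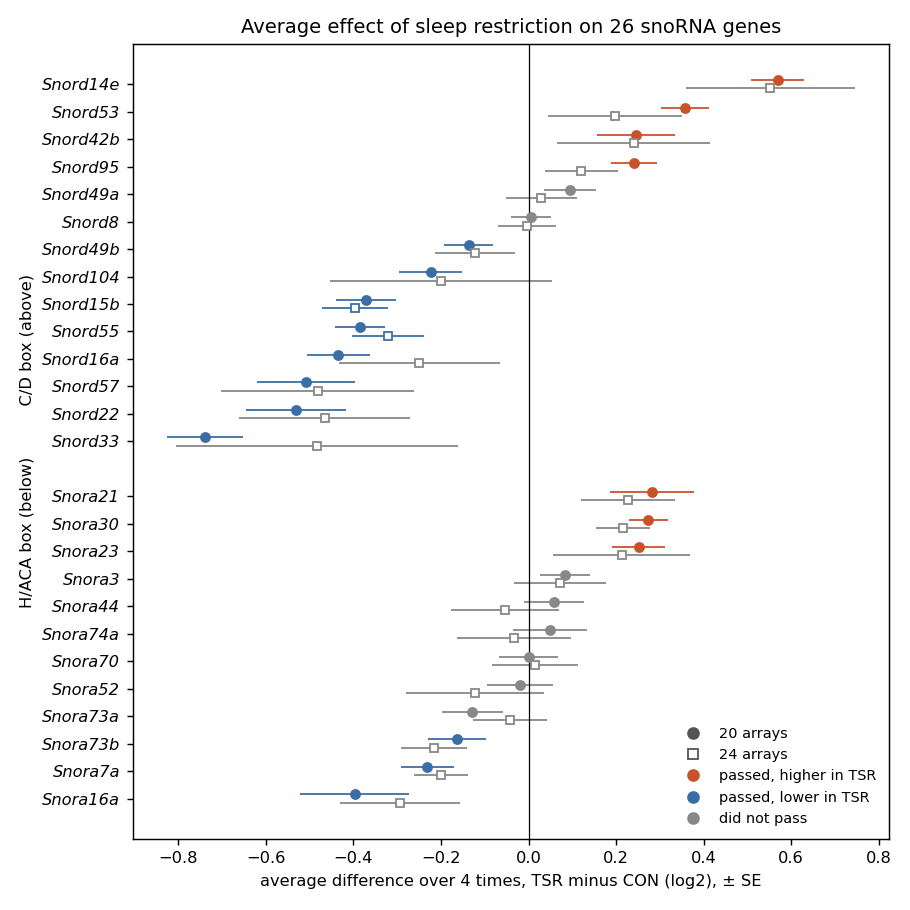
Average log2 difference (TSR minus CON, horizontal axis) with its standard error for the 26 tested snoRNA genes, in 20 arrays (filled circles) and 24 arrays (open squares). Snord33 at -0.74 and Snord14e at 0.57 mark the ends of the range in 20 arrays, and colour marks the genes that passed.

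Snord15b, which lies in the gene for ribosomal protein S3 and guides methylation of large-subunit ribosomal RNA, was lower on average by both fits. Its difference was -0.40 ± 0.08 (SE, 24 arrays, adjusted p = 0.00941) and -0.37 ± 0.07 (20 arrays, adjusted p = 0.000186). The narrow arrays differed little from the rest for this gene: they gave 7.19, 7.44, 7.62 and 7.52, within the range of the CON and TSR arrays. Snord55, another guide of large-subunit methylation, had a difference of -0.32 ± 0.08 in 24 arrays (adjusted p = 0.0422) and -0.39 ± 0.06 in 20 arrays (adjusted p = 1.87e-05). The 24-array call for Snord55 was lost in 21 of the 24 fits that each left out 1 array.

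ZT7, 1 hour past the end of the daily restriction window, gives the comparison least touched by the narrow arrays, since all 6 of its arrays had the usual spread. C/D snoRNAs were mostly lower in TSR at this time: 8 of 14 passed as lower and 1 as higher in 20 arrays, where 26.7% of all genes passed, 13.8% as lower and 12.8% as higher. Of the 12 H/ACA genes 1 was lower and none was higher, and 2 of the 12 had an unadjusted p under 0.05 by limma. The median difference was -0.37 for C/D genes and -0.10 for H/ACA genes, with 0.00 for all genes. The 2 fits give the same differences here and unlike errors, and with 24 arrays no snoRNA passed by limma, while 6 had an unadjusted p under 0.05 and 0.43% of all genes passed. Of the 7 hypothalamic markers 2 were lower at this time, the choroid plexus and plasma markers had a median of -0.80 with all 4 lower, and the cholinergic markers had a median of 2.16, whose part in the snoRNA differences was not tested.

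The 3 largest decreases at ZT7 among the 26 tested snoRNAs were in C/D genes that act on small-subunit ribosomal RNA. Snord33, which lies in Rpl13a and belongs to a set of snoRNAs known for a role in metabolic stress, read 7.36, 7.50 and 6.92 in the CON arrays and 6.13, 6.48 and 6.25 in the TSR arrays. All 3 TSR values lay below all 3 CON values, a difference of -0.97 ± 0.15 (SE; 1.96-fold lower, adjusted p = 8.54e-05, 20 arrays). Snord35a, which also lies in Rpl13a but was below the threshold, did not share this decrease. It differed by -0.14 at ZT7, 0.29 at ZT13 and 0.19 on average in 20 arrays. Snord57, a methylation guide within Nop56, read 9.23, 9.77 and 8.96 in CON and 8.16, 8.64 and 8.32 in TSR. Here too the groups did not overlap, with a difference of -0.95 ± 0.19 (1.93-fold lower, adjusted p = 0.00105). Snord22, which lies in the noncoding gene Snhg1 and is needed for maturation of small-subunit ribosomal RNA, read 7.38, 8.10 and 6.96 in CON and 6.71, 6.53 and 6.83 in TSR. The groups were apart, but CON replicate 2 stood well above the others: the difference was -0.79 ± 0.20 (adjusted p = 0.00531) and -0.48 without that array, where it still passed.

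Snord16a and Snord49b gave smaller decreases with clear separation. Snord16a, a methylation guide within the gene for ribosomal protein L4, read 7.21, 7.11 and 6.77 in CON and 6.30, 6.49 and 6.44 in TSR, a difference of -0.62 ± 0.12 (adjusted p = 0.00104). Snord49b, a guide of large-subunit methylation, read 7.40, 7.36 and 7.16 in CON and 6.83, 6.95 and 6.76 in TSR, a difference of -0.46 ± 0.10 (adjusted p = 0.00135). Its neighbour in the same noncoding gene, Snord49a, differed by -0.12 and did not pass. Snord55 read 7.50, 7.43 and 7.45 in CON and 7.04, 7.02 and 7.16 in TSR, a difference of -0.39 ± 0.10 (adjusted p = 0.00546). Snord15b read 7.93, 7.83 and 7.81 in CON and 7.44, 7.66 and 7.27 in TSR (-0.40 ± 0.12, adjusted p = 0.0155). All TSR arrays were below all CON arrays for both of these large-subunit guides. Snord104 read 7.94, 7.65 and 7.46 in CON and 7.30, 7.48 and 7.25 in TSR, so that its groups overlapped by 1 array although it passed (-0.34, adjusted p = 0.047). Counting only groups that did not overlap, 7 of 14 C/D genes were wholly lower and 1 wholly higher, and 4 of 12 H/ACA genes were wholly lower. Over all genes 18.8% were wholly lower and 17.4% wholly higher.

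The shift of the C/D class at ZT7 was visible in every array. Relative to each gene's centre, the median C/D gene lay at 0.13, 0.21 and 0.04 in the CON arrays and at -0.28, -0.08 and -0.27 in the TSR arrays. For H/ACA genes the medians were 0.19, 0.12 and 0.07 in CON and -0.06, 0.06 and -0.01 in TSR. CON and TSR arrays did not overlap in either class, though for H/ACA genes they nearly met (0.068 and 0.063). The gap was wider for C/D genes, a difference that was not tested. Usual CON arrays of other times gave C/D medians of 0.10, -0.15 and -0.27 at ZT1, 0.01 to 0.06 at ZT13 and -0.11 at ZT19. Some of these CON arrays thus lay within the range of TSR at ZT7.

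**Figure D2:**
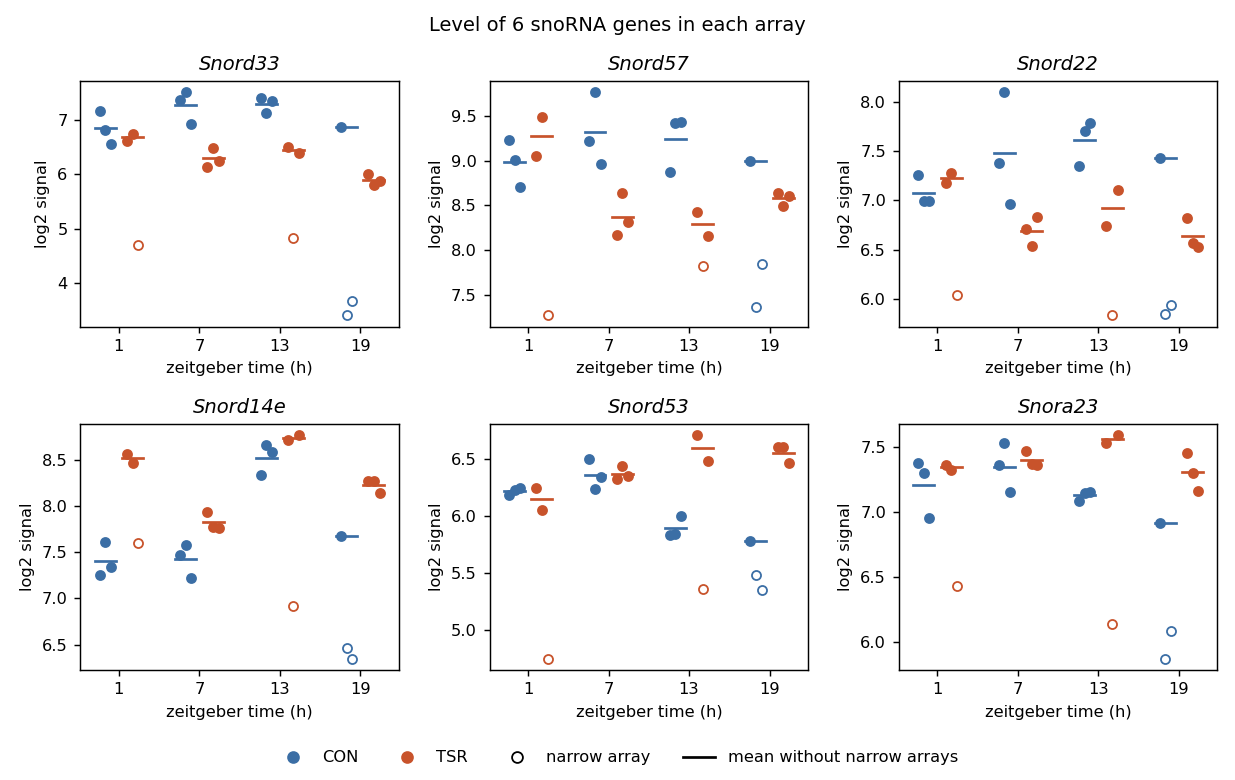
Log2 signal (vertical axis) of 6 snoRNA genes in each of the 24 arrays by zeitgeber time (hours, horizontal axis), CON in blue and TSR in red, with narrow arrays as open symbols and lines at group means without them. For Snord33, Snord57 and Snord22 the TSR arrays at ZT7 lie below all CON arrays, and the narrow arrays lie lowest or near lowest in most panels.

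Decreases were also found at ZT13. In 20 arrays 7 of 14 C/D genes were lower and 2 higher, and 2 of 12 H/ACA genes were higher, where 46.0% of all genes passed, 22% lower and 24% higher. Snord57 read 8.87, 9.43 and 9.44 in CON and 8.42 and 8.16 in the usual TSR arrays, a difference of -0.96 ± 0.21 (1.94-fold lower, adjusted p = 0.00128). Snord33 read 7.39, 7.12 and 7.35 in CON and 6.49 and 6.39 in TSR, a difference of -0.84 ± 0.17 (adjusted p = 0.000474). Both TSR arrays lay below every CON array for both genes. At ZT13 as a whole, 7 of 14 C/D genes were wholly lower in TSR and 5 wholly higher, against 3 and 2 of 12 H/ACA genes, where 30.5% of all genes were wholly lower and 32.0% wholly higher. Snord22 had a difference of -0.69 ± 0.22 (adjusted p = 0.0147), which did not pass without TSR ZT13 replicate 1 (-0.51, adjusted p = 0.155) or without CON ZT13 replicate 3 (-0.61, adjusted p = 0.0511). Snord16a read 7.03, 6.79 and 6.85 in CON and 6.42 and 6.50 in the usual TSR arrays, apart from CON (-0.43 ± 0.14, adjusted p = 0.0161). Snord15b (-0.37), Snord104 (-0.35) and Snord55 (-0.32) were also lower. The count at ZT13 fell from 11 to 6 snoRNA genes when either usual TSR array, replicate 1 or 3, was left out. With 24 arrays no snoRNA passed at ZT13 by limma, 6 had an unadjusted p under 0.05, and 0.413% of all genes passed.

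At ZT19 the same 5 C/D genes, Snord33, Snord22, Snord16a, Snord55 and Snord15b, were lower again in 20 arrays, where 24.5% of all genes passed, 6.96% lower and 17.5% higher. In all, 5 of 14 C/D genes were lower and 4 higher there, and 1 of 12 H/ACA genes was higher. That comparison sets 3 TSR arrays against 1 CON array, whose spread is assumed to equal that of the other groups. Snord33 read 6.87 in the CON array and 6.01, 5.79 and 5.87 in TSR, a difference of -0.97 ± 0.21 (adjusted p = 0.00361). In the 2 narrow CON arrays it read 3.40 and 3.67, and with these included the difference was 1.24, in the opposite direction, and did not pass. Snord16a (0.71) and Snord22 (0.23) also had the opposite sign in 24 arrays and did not pass. Snord55 read 7.53 in the usual CON array, 7.64 and 7.64 in the narrow ones, and 6.89, 6.93 and 6.81 in TSR, so its groups were apart either way (-0.65 ± 0.14 and adjusted p = 0.00309 in 20 arrays, -0.72 ± 0.16 and adjusted p = 0.0197 in 24). Snord22 at ZT19 was close to the threshold (-0.79, adjusted p = 0.0436), and 9 of the 19 fits that each left out 1 array did not pass it. Those were the fits without CON ZT1 replicate 2 or 3, TSR ZT1 replicate 1 or 2, CON ZT7 replicate 1, TSR ZT7 replicate 1 or 3, and TSR ZT19 replicate 2 or 3. At ZT1 none of these 5 genes passed by limma or had an unadjusted p under 0.05, with differences from -0.18 to 0.15.

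**Figure D3:**
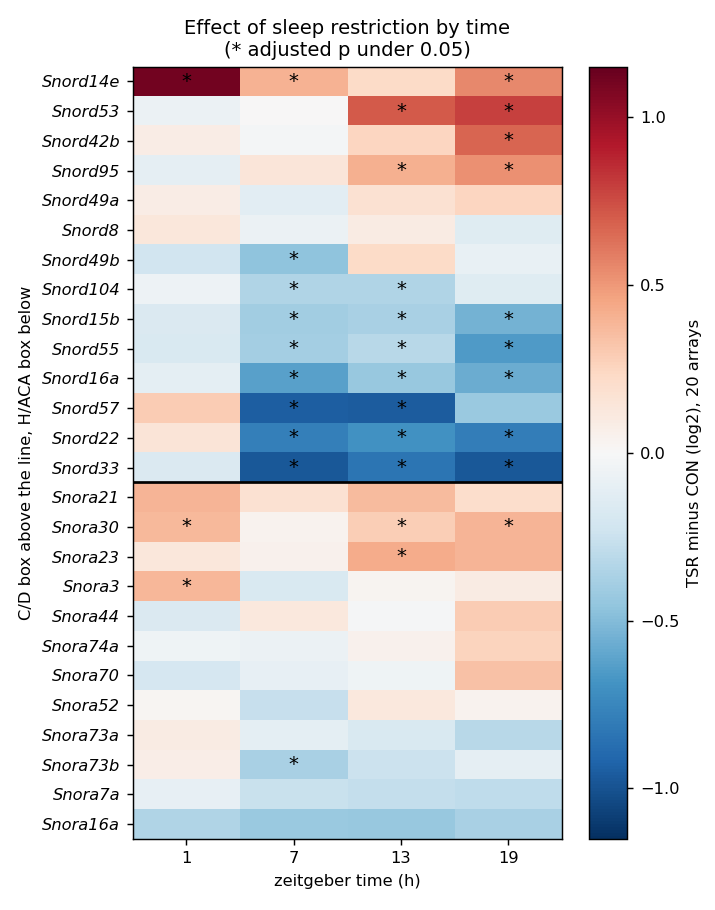
Log2 difference (TSR minus CON, colour) at each zeitgeber time (hours, horizontal axis) for the 26 tested snoRNA genes in 20 arrays, C/D genes above the line and H/ACA genes below it, with stars at an adjusted p under 0.05. Stars on blue cells mark 8 C/D genes at ZT7, 7 at ZT13, 5 at ZT19 and none at ZT1.

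Other C/D genes were higher under sleep restriction, on average 4 of 14 in 20 arrays, as given above, where 33.4% of all genes were higher. Snord14e lies in Hspa8, the gene of a constitutive heat shock protein, and belongs to a family that acts both in cleavage and in methylation of small-subunit precursors. At ZT1 it read 7.26, 7.61 and 7.34 in CON and 8.56 and 8.46 in the usual TSR arrays. Both TSR values lay above all CON values, and the difference was 1.11 ± 0.12 (SE; 2.16-fold higher, adjusted p = 8.6e-06, 20 arrays). The narrow TSR array gave 7.60, within the CON range, and with it the ZT1 difference was 0.81 and did not pass. At ZT7 the gene read 7.47, 7.58 and 7.23 in CON and 7.93, 7.77 and 7.76 in TSR, again with no overlap, and the difference was 0.40 ± 0.10 (adjusted p = 0.00734). It did not pass at ZT13 (0.22) and was higher at ZT19 (0.55 ± 0.15, adjusted p = 0.0116). Over the 4 times it averaged 0.57 ± 0.06 (1.48-fold higher, adjusted p = 4.83e-07).

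Snord53, within Wdr43, did not differ detectably at ZT1 (-0.07) or ZT7 (0.01) and was higher at ZT13 and ZT19. At ZT13 it read 5.84, 5.84 and 6.01 in CON and 6.71 and 6.49 in the usual TSR arrays. The difference was 0.71 ± 0.11 (1.63-fold higher, adjusted p = 3.63e-05, 20 arrays). The narrow TSR array read 5.36, below all CON values of that time. With that array Snord53 differed by 0.29 and did not pass. At ZT19 it read 5.78 in the usual CON array and 6.61, 6.61 and 6.47 in TSR, a difference of 0.78 ± 0.13 (adjusted p = 0.000718). The narrow CON arrays lay lower still, at 5.48 and 5.35, so all 3 TSR arrays were above all 3 CON arrays. With 24 arrays the gene passed too (1.03 ± 0.31, adjusted p = 0.0209). Narrow arrays of both conditions read low for Snord53, by -1.41 to -0.30 against the usual arrays of their groups. The 24-array result at ZT19 therefore adds no separate evidence. Snord95, within Rack1, was higher at the same times in 20 arrays, though its narrow TSR array at ZT13 read 5.89, below CON. At ZT13 it read 6.28, 6.26 and 6.13 in CON and 6.70 and 6.55 in the usual TSR arrays, with no overlap, and it differed by 0.41 ± 0.10 at ZT13 (adjusted p = 0.00246) and 0.52 ± 0.12 at ZT19 (adjusted p = 0.00643). Snord42b, a small-subunit methylation guide within Rpl23a, read 6.23 in the usual CON array and 7.06, 6.87 and 6.78 in TSR at ZT19. It passed at ZT19 alone (0.67 ± 0.21, adjusted p = 0.0301 in 20 arrays; 1.43 ± 0.35, adjusted p = 0.0197 in 24), and without TSR ZT19 replicate 1 its 20-array adjusted p was 0.0799. With 24 arrays ZT19 passed 3 C/D genes as higher, 2 as lower and 2 H/ACA genes as higher. In that fit 55.1% of all genes passed at ZT19, 44.1% as higher and 11% as lower.

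Of the 12 H/ACA snoRNAs above the threshold 3 were higher and 3 lower on average in 20 arrays, where 33.4% of all genes were higher and 22.8% lower. Over all 20 H/ACA genes, without the filter, 8 were higher and 2 lower, with a median of 0.13 against -0.020 for all genes. In that fit 21.1% of all genes were higher and 15% lower. Snora30 was the member with most separate calls, higher in 20 arrays at ZT1, ZT13 and ZT19. At ZT1 it read 6.68, 6.67 and 6.67 in CON and 7.08 and 7.02 in the usual TSR arrays, a difference of 0.37 ± 0.08 (SE; adjusted p = 0.00857). The groups were apart, and the narrow TSR array, at 6.80, also lay above CON, but the gene missed the threshold without TSR ZT1 replicate 1 (adjusted p = 0.1003) or replicate 2 (adjusted p = 0.0641). At ZT13 it read 6.70, 6.72 and 6.75 in CON and 6.92 and 7.10 in the usual TSR arrays (0.29 ± 0.08, adjusted p = 0.00988). The narrow TSR array of that time read 6.61, below all CON values. With that array Snora30 differed by 0.15 and did not pass. At ZT19 it read 6.85 in the usual CON array, 6.92 and 6.84 in the narrow ones, and 7.34, 7.25 and 7.14 in TSR. That difference passed in both fits (0.39 ± 0.11, adjusted p = 0.013 in 20 arrays; 0.38 ± 0.12, adjusted p = 0.0242 in 24), and the 24-array value turned to -0.088 when each array was centred on its median.

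Snora23, within the importin gene Ipo7, read 7.09, 7.14 and 7.16 in CON and 7.53 and 7.59 in the usual TSR arrays at ZT13. The difference was 0.43 ± 0.12 (adjusted p = 0.0054, 20 arrays). The narrow TSR array read 6.14, below CON, and with it Snora23 differed by -0.04 and did not pass. At ZT19 its 24-array difference of 1.01 ± 0.31 (adjusted p = 0.0219) rested on narrow CON arrays at 5.88 and 6.09, and without them it was 0.39 (adjusted p = 0.0579). Snora3 was higher at ZT1 in 20 arrays (0.38 ± 0.11, adjusted p = 0.0331), and it missed the threshold in each of the 5 fits that left out an array of that time, with adjusted p from 0.0679 to 0.252. At ZT1 as a whole, 1 C/D and 2 H/ACA genes were higher and none was lower, with 9.86% of all genes passing, 6.76% higher and 3.1% lower, and the count fell from 3 to 1 without either usual TSR array. With 24 arrays none passed at ZT1 by limma, 4 had an unadjusted p under 0.05, and 0.0505% of all genes passed.

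Among the H/ACA genes lower on average in 20 arrays was Snora73b, 1 of 2 closely related genes within Snhg3 that act in precursor cleavage. At ZT7 it read 7.29, 7.04 and 7.01 in CON and 6.77, 6.70 and 6.76 in TSR, without overlap, a difference of -0.37 ± 0.11 (adjusted p = 0.0181). Its near copy Snora73a differed by -0.11 at ZT7 and did not pass, and probes of such close copies may share signal. Snora16a averaged -0.40 ± 0.12 (adjusted p = 0.0114) with a difference between -0.35 and -0.44 at every time, and Snora7a averaged -0.23 ± 0.06 (adjusted p = 0.00376). Snora21, at 0.28 ± 0.10 (adjusted p = 0.0186), was higher on average in 20 arrays but missed the threshold without TSR ZT1 replicate 1 (adjusted p = 0.0516). The other 6 H/ACA genes did not pass on average, with differences from -0.13 for Snora73a to 0.08 for Snora3. Of the H/ACA genes lower on average, Snora16a and Snora7a passed at no single time. At ZT1 Snora16a read 7.16, 6.34 and 6.17 in CON and 6.27 and 6.16 in the usual TSR arrays, so that difference leaned on CON replicate 1. Its ZT19 difference rested on 1 CON array and was 0.22, in the opposite direction, in 24 arrays.

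Above the threshold, the 2 classes also read differently in the 4 narrow arrays. Relative to each gene's centre, the median C/D gene lay at -1.04 to -0.71 in these arrays and the median of all genes at -0.80 to -0.70, while the median H/ACA gene lay at -0.19 to -0.01. In the other 20 arrays the ranges were -0.36 to 0.21 for C/D, -0.15 to 0.19 for H/ACA and -0.07 to 0.07 for all genes. Against the usual arrays of its own group, 9 of 14 C/D genes were lower in all 4 narrow arrays and 2 were higher, Snord55 and Snord8. Over all tested genes 70.3% were lower in all 4 and 13.8% higher. Of the 12 H/ACA genes 4 were lower in all 4 and 4 were higher (Snora3, Snora44, Snora70 and Snora74a). Snord33 moved most, by -3.46 to -1.61. The 17 C/D genes below the threshold did not share 1 direction: Snord61 was lower in all 4 (-2.17 to -1.12) and Snord42a higher (1.85 to 3.02). These are values of single arrays with no test.

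The 25 snoRNA genes below the threshold, 17 C/D and 8 H/ACA, could be tested only in fits without the filter. In that fit of 20 arrays, 18 of all 51 genes were higher and 11 lower on average, where 36.1% of the 19938 genes passed, 21.1% higher and 15% lower. At single times the share of all genes that passed without the filter was 5.47% at ZT1, 15.2% at ZT7, 27.1% at ZT13 and 12.8% at ZT19. Of the 25, 6 C/D and 5 H/ACA genes were higher and 2 C/D genes lower. The strongest was Snord61, a methylation guide within Rbmx. At ZT1 it read 5.19, 5.39 and 5.13 in CON and 6.26 and 6.12 in the usual TSR arrays, which lay above all CON values (0.95 ± 0.19, adjusted p = 0.00503). At ZT19 it read 4.85 in the usual CON array and 6.36, 6.14 and 5.98 in TSR (1.32 ± 0.24, adjusted p = 0.00162). It was higher at ZT13 too (0.59 ± 0.19, adjusted p = 0.024), and read 4.02 and 4.16 in the narrow TSR arrays, below every CON array of those times. Snord42a, named after its values were seen, shares Rpl23a with Snord42b and was lower at ZT7 (-0.68 ± 0.23, adjusted p = 0.0473) and ZT13 (-1.04 ± 0.25, adjusted p = 0.0039), where Snord42b differed by -0.02 and 0.25 and did not pass. At ZT1 Snord42a differed by 0.63 and did not pass (adjusted p = 0.153), and its effect differed between times (adjusted p = 0.0118). Snord87 averaged 0.43 ± 0.11 (adjusted p = 0.00287) and was higher at ZT13 (0.59). Among H/ACA genes Snora75 averaged 0.30 ± 0.08 (adjusted p = 0.00357) and was higher at ZT13 (0.64 ± 0.15, adjusted p = 0.00234). Snord118, which acts in large-subunit precursor cleavage, averaged 0.08 and did not pass. Without the filter the median of the 51 snoRNA genes was 0.094 on average, against -0.01 for the 26 genes above it.

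snoRNA genes and the genes that enclose them gave unequal differences in several pairs. For 13 of the 26 tested snoRNAs the enclosing gene was also tested, 7 C/D and 6 H/ACA. In 20 arrays the 2 had the same sign in 8 of 13 pairs on average in 9 at ZT1, 10 at ZT7, 7 at ZT13 and 5 at ZT19. Across pairs the average differences had a Pearson r of 0.09 for C/D (n = 7) and 0.78 for H/ACA (n = 6), a description of few pairs measured on the same arrays. Strand was not checked, and an array probe does not separate a mature snoRNA from unspliced RNA of its host. Enclosing genes follow the RefSeq position of the snoRNA gene, and the position of the probe set was not checked. Of the H/ACA genes in these pairs, Snora21, Snora3 and Snora30 each had 2 probe sets, so the one read may lie elsewhere.

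The clearest separation was Snord57 and Nop56, which codes for a core protein of C/D snoRNA particles. At ZT13 Snord57 was lower by 0.96 while Nop56 was higher by 0.31 ± 0.06 (adjusted p = 0.000675), and at ZT7, where Snord57 differed by -0.95, Nop56 differed by 0.07 and did not pass. Snord16a was lower at ZT7 (-0.62) while Rpl4 differed by -0.04. Snord14e averaged 0.57 while Hspa8 differed by 0.08 and did not pass. Snord42b averaged 0.25 while Rpl23a averaged -0.25 ± 0.04 (adjusted p = 5.73e-05). Other pairs moved together: Snord53 and Wdr43 were both higher at ZT13 (0.71 and 0.41) and ZT19 (0.78 and 0.62), Snora23 and Ipo7 both at ZT13 (0.43 and 0.46), and Snord15b and Rps3 were both lower at ZT7 (-0.40 and -0.43). The difference between a snoRNA and its enclosing gene was not itself tested. The genes that enclose Snord33 and Snord22, namely Rpl13a and Snhg1, were not analysed here.

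**Figure D4:**
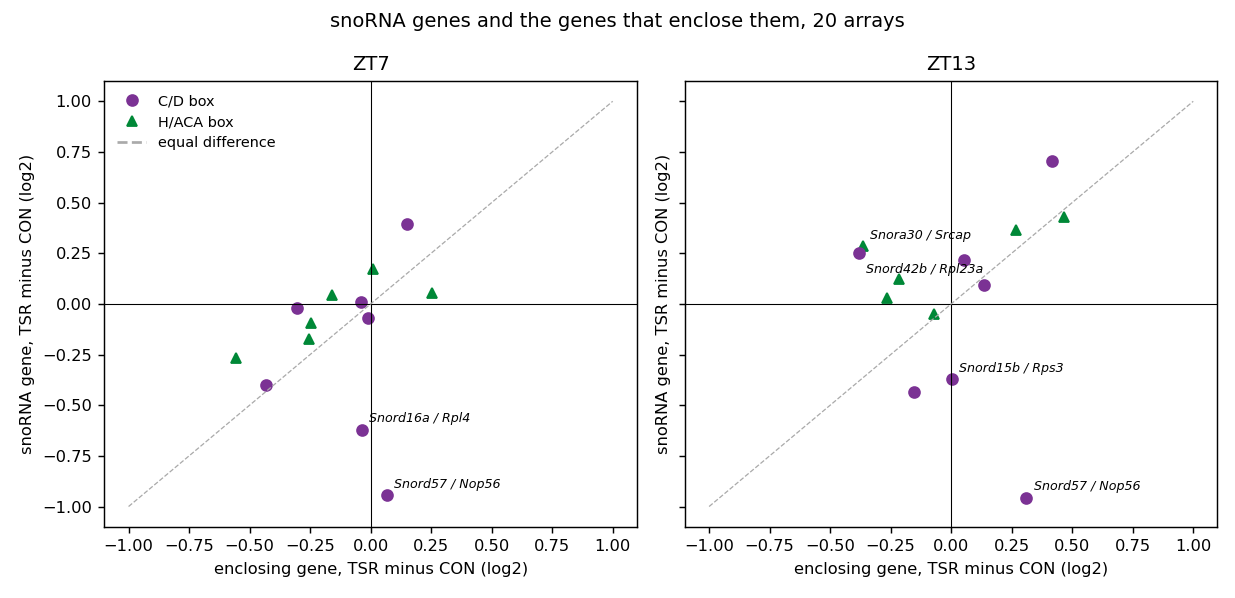
Log2 difference (TSR minus CON, 20 arrays) of 13 snoRNA genes (vertical axis) and of the genes that enclose them (horizontal axis) at ZT7 and ZT13, C/D genes as circles and H/ACA genes as triangles, with pairs more than 0.35 apart named. Snord57 lies near -0.95 at both times while Nop56 lies at 0.07 and 0.31.

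Genes of the snoRNA machinery are counted here on average in 20 arrays, where 33.4% of all genes were higher and 22.8% lower. Of the 4 tested core proteins of C/D particles, Nop58 (0.43 ± 0.06, adjusted p = 1.08e-05) and Nop56 (0.22 ± 0.03) were higher, the methyltransferase Fbl was slightly lower (-0.10 ± 0.04, adjusted p = 0.0496), and Snu13 did not pass. At ZT7 none of the 4 passed by limma or had an unadjusted p under 0.05. Of the 4 core proteins of H/ACA particles, 3 were higher: the pseudouridine synthase Dkc1 (0.44 ± 0.05, adjusted p = 1.6e-06), Nop10 (0.29 ± 0.06) and Nhp2 (0.16 ± 0.06). Dkc1 (0.48) and Nhp2 (0.29) also passed at ZT7, where 26.7% of all genes passed, 12.8% as higher. Of 15 tested assembly and trafficking factors, 7 were higher, among them Shq1 and Ruvbl1, and 1 was lower, Ruvbl2. Of 17 long noncoding host genes of snoRNAs only 4 were tested, of which Gas5 (0.18) and Snhg5 (0.33) were higher, Snhg11 (-0.31) was lower and Snhg15 (-0.02) did not pass. Of 21 genes of RNA polymerase I and the nucleolus, 11 were higher and 3 lower (median 0.15). In 24 arrays none of the 44 tested genes of these lists, the long noncoding hosts aside, passed on average by limma, where 2.41% of all genes did, and 3 had an unadjusted p under 0.05.

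Other short noncoding RNAs gave these values in the same arrays. Of 7 tested RNAs made by RNA polymerase III, all 7 were lower on average in 20 arrays (median -0.73), 2 of them also in 24, and the 5S ribosomal RNA gene n-R5s136 had the largest difference (-1.75 ± 0.05, adjusted p = 6.86e-15). Of 82 microRNA genes 16 were higher and 14 lower, 30 in all, where 56.2% of all genes passed, 33.4% higher and 22.8% lower. Of the 2 tested Cajal body RNAs, Scarna17 was higher (0.34 ± 0.04) and Scarna13 lower (-0.12 ± 0.05, adjusted p = 0.0499).

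Daily rhythm was tested with a 24-hour F test in each condition. In 20 arrays 5 of 14 C/D genes and no H/ACA gene passed in CON, and 5 C/D and no H/ACA gene in TSR, where 21.1% of all genes passed in either. Of the 12 H/ACA genes 4 in CON and 2 in TSR had an unadjusted p under 0.05 by limma. In CON the largest amplitude was that of Snord14e, 0.57 (from mean to peak, fitted peak at ZT13.8, adjusted p = 2.9e-06), with CON values of 7.23 to 7.61 at ZT1 and ZT7 and 8.33 to 8.66 at ZT13. In TSR its amplitude was 0.23 with a peak at ZT17.0 (adjusted p = 0.0148). Snord53 had a fitted peak at ZT5.06 in CON (amplitude 0.34, adjusted p = 0.00195) and at ZT14.5 in TSR (amplitude 0.24, adjusted p = 0.0136). Snord57 passed in TSR alone, with an amplitude of 0.50 and a peak at ZT0.22 (adjusted p = 0.014). Snord16a, Snord33 and Snord49b passed in CON only, and Snord15b and Snord95 in TSR only. Whether rhythms differed between conditions was tested only through the effect by time below. In 24 arrays no snoRNA passed in either condition by limma, 13 in CON and 1 in TSR had an unadjusted p under 0.05, and 0.11% of all genes passed in CON and 0.0842% in TSR. CON rhythms in 20 arrays rest on 1 array at ZT19, and the CON count was 8 without CON ZT7 replicate 3. The TSR count of 5 was 1 when TSR ZT1 replicate 2 was left out, 2 in the absence of TSR ZT13 replicate 1, and 3 without TSR ZT7 replicate 1 or 2 or TSR ZT19 replicate 1 or 2.

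The effect of restriction differed between times for 7 of 26 snoRNA genes in 20 arrays (F test of the time-by-condition terms), where 29.2% of all genes passed. They were Snord53, Snord14e, Snord57, Snord49b, Snord95, Snord33 and Snora3. Snord57 had the widest range, from -0.96 at ZT13 to 0.29 at ZT1 (adjusted p = 0.00923). Without TSR ZT1 replicate 2 the count was 3. In 24 arrays no snoRNA passed by limma, 9 had an unadjusted p under 0.05, and 0.261% of all genes passed.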

How the data were processed

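Total RNA of 24 mediobasal hypothalamus samples was, per the labels' protocols, labelled by the GeneChip WT Terminal Labeling Kit and read on Affymetrix arrays. The deposited table holds log2 signals for 35556 probe sets, made by the authors with Affymetrix Expression Console per the submitters' processing notes, by a summarization not given in the sources used here. Of 853344 cells, 2760 (0.323%) had lost their decimal point and were restored from the other arrays, 1 of them in a snoRNA gene. A further 7 could not be restored and were set to missing.

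Probe sets with 1 gene symbol were kept, and genes with a mean under the 40th percentile were left out of testing. Of the snoRNA probe sets, 41 carried several symbols and were left out, among them 24 of Snord116. The number of arrays limits precision. limma 3.58.1 in R 4.3.3 fitted all groups together, with a trend in the prior variance, and p-values were adjusted over all tested genes. The fit with all 24 arrays was the planned one. The fit without 4 narrow arrays (interquartile range under 2.5), which the choice of snoRNAs as a topic already named, was run beside it. The rhythm test fits a 24-hour cosine, and times 6 hours apart cannot separate shorter periods. The fit was tested on simulated data. Enclosing genes were found by position in RefSeq GRCm38.p6 annotation.

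The snoRNA members and the lists were chosen with earlier results of these data known. Genes named were those that passed in 24 arrays, the largest passing differences in 20 arrays by class and time, the extremes of level, the smallest rhythm p-values, and a list of well-known snoRNAs. The test of the effect by time was added after seeing the data. Alternatives were other scalings, filters, array weights, a replicate block, and leaving out each array.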

Additional observations from a re-analysis of the deposited data

Results flagged for a closer look

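For 7 snoRNA genes the effect of sleep restriction differed between the 4 times in 20 arrays, by limma's F test of the time-by-condition terms adjusted over all tested genes, a test chosen after seeing the data. That is 7 of 26, where 29.2% of all genes passed the same test, so the count is near the background. Snord53 (adjusted p = 0.000499) had differences from -0.07 at ZT1 to 0.78 at ZT19. Snord14e (adjusted p = 0.0025) had positive differences at all 4 times, from 0.22 at ZT13 to 1.11 at ZT1. Snord57 (adjusted p = 0.00923) ran from -0.96 at ZT13 to 0.29 at ZT1. Snord49b (adjusted p = 0.0103) ran from -0.46 at ZT7 to 0.22 at ZT13. Snord95 (adjusted p = 0.0134) ran from -0.11 at ZT1 to 0.52 at ZT19. Snord33 (adjusted p = 0.0319) ran from -0.97 at ZT7 and ZT19 to -0.16 at ZT1. Snora3 (adjusted p = 0.0438) ran from -0.17 at ZT7 to 0.38 at ZT1. The ZT19 values rest on 1 CON array, and none of the 7 passed in 24 arrays by limma, where 5 of the 7 had an unadjusted p under 0.05.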

How the results depend on the processing

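Which arrays entered decided most counts. Counts are of 26 tested snoRNA genes, or of 51 in the runs with no filter, so the 2 kinds cannot be set side by side. On average 2.41% of all genes passed in 24 arrays, 56.2% without the narrow arrays and 36.1% with no filter and no narrow arrays. At ZT19 in 24 arrays 55.1% passed, and 49.4% with no filter. Shares under the other scalings, weights and blocks are not given. Beside the 2 snoRNA genes that passed on average in 24 arrays, 18 passed without the narrow arrays, 4 with quantile normalization, 19 with both, 5 with median centring, 1 without the variance trend, 15 with array weights, 1 with the replicate block, 17 with the block and no narrow arrays, and 29 with no filter and no narrow arrays. For ZT1, ZT7 and ZT13, where 0 passed in 24 arrays by limma (4, 6 and 6 at an unadjusted p under 0.05), the counts were 3, 10 and 11 without the narrow arrays, 3, 10 and 13 with quantile normalization as well, 4, 11 and 14 with array weights, 3, 10 and 11 with the block and no narrow arrays, and 4, 10 and 16 with no filter and no narrow arrays. Median centring gave 1 at ZT7 and 1 at ZT13, and the ZT7 arrays alone gave 9. At ZT19 the 7 became 19 with no filter, 18 with array weights, 0 in the arrays of that time alone, and 13 with no filter and no narrow arrays. Rhythm in CON gave 5 without narrow arrays, 6 with quantile normalization too, 1 with median centring, 18 with weights, 7 with the block and no narrow arrays, and 5 with no filter and no narrow arrays; without centring, rhythm in TSR gave 5, 6, 11, 4 and 5 under the same settings, and the effect by time 7, 8, 21, 6 and 10.

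The median snoRNA difference at ZT19 was 0.23 in 24 arrays and turned to -0.023 without the narrow arrays, -0.12 with quantile normalization as well and -0.24 with median centring; it was 0.024 with the block and no narrow arrays and 0.26 with no filter and no narrow arrays. At ZT1 it moved to 0.042 with centring, 0.046 with no filter and 0.15 with no filter and no narrow arrays, at ZT13 to 0.052, 0.026 and 0.10, and on average to 0.094 with no filter and no narrow arrays. Snora30 at ZT19 turned to -0.088 with centring (adjusted p = 0.596). For the 14 C/D genes above the threshold, the C/D median stayed below the all-gene median at every time and scaling run, except at ZT19 with quantile normalization of 24 arrays (0.06 above). Without the filter, over 31 C/D genes in 20 arrays, it lay below at ZT7 (-0.18) but above on average (0.11) and at ZT1 (0.18), ZT13 (0.10) and ZT19 (0.35). The cause of these moves was not tested.

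Leaving out each array in turn gave, in 24 arrays, 1 to 4 on average, 0 at ZT1, ZT7 and ZT13, 0 to 16 at ZT19, 0 to 15 for rhythm in CON, 0 in TSR and 0 to 15 for the effect by time. In 20 arrays it gave 15 to 18 on average, 1 to 3 at ZT1, 7 to 10 at ZT7, 6 to 11 at ZT13, 7 to 11 at ZT19, 4 to 8 and 1 to 7 for the rhythms and 3 to 10 for the effect by time. At ZT19 in 24 arrays the count was 16 without CON replicate 1 and 0 without CON replicate 2 or 3 or TSR replicate 1 or 2; the 15 for rhythm in CON and for the effect by time came without CON ZT19 replicate 1, and the average count was 4 without TSR ZT1 replicate 3 or TSR ZT13 replicate 2. Median differences ranged from -0.07 to -0.03 on average, -0.21 to -0.01 at ZT1, -0.20 to -0.14 at ZT7, -0.24 to 0.01 at ZT13 and 0.044 to 0.35 at ZT19 in 24 arrays, and from -0.03 to 0.01 on average, -0.06 to 0.06 at ZT1, -0.03 to 0.02 at ZT13 and -0.10 to 0.04 at ZT19 in 20. Correlations of same-numbered samples' deviations ran from -0.40 to 0.38 over the 4 times, over 0.1 in all 3 pairs at ZT19 alone (0.14 to 0.38), so the numbers were not taken to pair samples; at ZT19 the block gave 8 called against 7 in 24 arrays. Signals near background, as for the 25 snoRNA genes below the threshold, limit what can be detected.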

Other observations

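Snord116, a C/D family of the imprinted Prader-Willi region expressed in neurons, was left out because its 24 probe sets carry several symbols and hold only 7 distinct rows of values. The median of these probe sets per array averaged 11.89 in CON and 11.25 in TSR at ZT7, with CON arrays from 11.60 to 12.37 and TSR arrays from 11.15 to 11.39. At ZT13 the means were 12.18 and 10.92 in 20 arrays, with CON from 11.84 to 12.35 and TSR from 10.80 to 11.05. The groups did not overlap at either time. At ZT1 the mean was higher in TSR in 20 arrays (11.26 in CON, 11.79 in TSR). The usual TSR arrays there, from 11.76 to 11.83, lay above CON, from 11.18 to 11.40. With the narrow array, TSR at ZT1 ran from 10.70 to 11.83 and overlapped CON. At ZT19 the value was 12.08 in the 1 usual CON array and 11.19 on average in TSR. In 24 arrays CON at ZT19 averaged 11.06, and the difference was 0.13, in the opposite direction. These values were chosen after they were seen and were not tested.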
